A study of Mus musculus with 9 samples.

Results

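The pocket proteins Rbl1 and Rbl2 and the transcription factors E2f1, E2f2, E2f3, E2f5 and E2f7 were followed in mouse mammary tumours made to lose Rb and p53. Each gene was represented by a window of 200 kb around it in mm9 coordinates (300 kb for E2f3), and the rule for the 7 windows uses gene name and position and no measured value. They were set among 11680 autosomal windows in all, the other 11673 being tiles of 200 kb that cover the autosomes. The series measured DNA copy number on 2-colour tiling arrays, each of 9 arrays holding Cy5-labelled (red) DNA of 1 tumour and Cy3-labelled (green) pooled tail DNA of tumour-free mice. Both Ad-Cre tumours were labelled as transplants, and their Cre recombinase came from an adenovirus with a CMV promoter. Of 7 MMTV-Cre tumours, whose Cre is driven by a promoter active in mammary epithelium, 5 were labelled as transplants, 1 came from a nulliparous mouse and 1 from a parous mouse; these last are called intact-gland tumours below. All tumours came from mice with floxed Rb and p53 alleles on a mixed background, and the pool came from mice of that background. No ages are given in the labels, which call the tumours independent, and no array holds control DNA against the pool.

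The retinoblastoma protein, whose floxed gene is the target of Cre in these models, and its relatives p107 (Rbl1) and p130 (Rbl2) are the pocket proteins, which bind E2F factors and hold genes for the cell cycle silent in resting cells. E2f1, E2f2 and E2f3 drive those genes when released from a pocket protein. E2f5 is held to act as a repressor together with p107 and p130, and E2f7 is an atypical repressor that works without a pocket protein or a DP partner. In a cell without the retinoblastoma protein, p107 and p130 are the pocket proteins that remain.

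Values below are log2 ratios of tumour over pool, averaged over the probes of a window and centred on the autosomal median of the array. They compare tumour and pool relative to the rest of the genome, not in absolute copies. In a sample made only of cells with 2 copies of most of the genome, 3 copies of a gene would give 0.58 and 1 copy -1, and admixed normal cells bring both closer to 0. The share of tumour cells in each sample was not known, so no copies are given.

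The arrays held 914119 distinct autosomal probes with a median spacing of 1782 bp. The noise of single probes was 0.16 to 0.18 on the log2 scale, and neighbouring tiles gave a window noise of 0.033 to 0.055. As a check of the deleted genes, 2 runs of 4 adjacent probes fell by 0.5 or more relative to 20 probes on each side in at least 7 tumours. One lay on chromosome 11, where the p53 gene Trp53 is, and kept 30.7% to 59.8% of the flank signal in 8 tumours. The library labelled MMTV-Cre transplant 2 kept 97.8% there and so showed no drop at these probes, although its tumour model was made to lose p53. The other run lay on chromosome 7 and was not assigned to a gene, and no run was found for Rb1. The search needed 4 adjacent probes at a median spacing of 1782 bp, so it could not find a shorter deletion. It therefore does not tell whether Rb1 was deleted. The arrays fell on 3 scan days, and no day held MMTV-Cre transplants together with another group.

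The windows hold between 72 and 133 probes each. Rbl1 lies on chromosome 2 (window 156900001 to 157100000, 117 probes) between Samhd1 and Mroh8, and E2f1 lies on the same chromosome (154300001 to 154500000, 123 probes) between Actl10 and Pxmp4. Rbl2 lies on chromosome 8 (93500001 to 93700000, 113 probes) between Chd9 and Aktip. E2f2 lies on chromosome 4 (135600001 to 135800000, 105 probes) between Id3 and Asap3. E2f3 lies on chromosome 13 (29900001 to 30200000, 133 probes) between Cdkal1 and Mboat1. E2f5 lies on chromosome 3 (14500001 to 14700000, 99 probes) between Lrrcc1 and Rbis, and E2f7 on chromosome 10 (110100001 to 110300000, 72 probes) between Nav3 and Csrp2. Neighbours are the nearest protein-coding genes in the RefSeq table of GRCm38.p6. The deposited files pair no probe with a gene, so a value belongs to the window and not to exons or introns of the gene.

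The first comparison asked whether any of these genes was gained or lost across the tumours. Rbl2, E2f2 and E2f5 were higher than the pool over the 9 tumours, and no window was lower by the test. E2f1 and Rbl1 had the lowest means and did not pass, while E2f3 and E2f7 lay close to 0. Thus 3 of 7 windows passed in the upward direction, against 16.8% of all 11680 windows, and 0 of 7 passed downward, against 19.4%. The median of the 7 means was -0.0022, against -0.020 over all tiles.

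**Figure D1:**
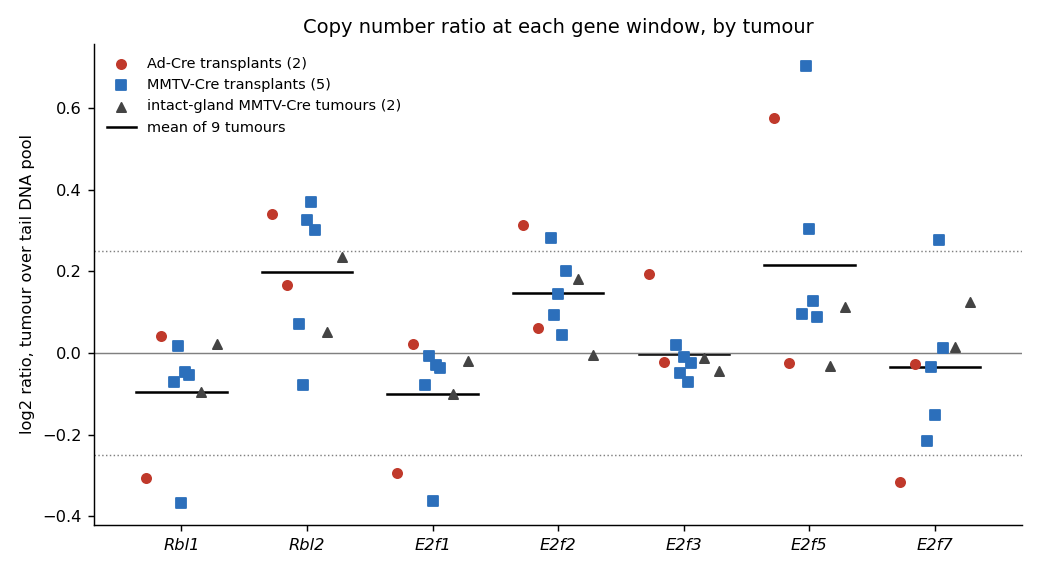
Log2 ratio of tumour over tail DNA pool (vertical axis) for each of the 7 gene windows (horizontal axis). Each point is 1 tumour, circles for Ad-Cre transplants, squares for MMTV-Cre transplants and triangles for the intact-gland tumours; black lines are means of 9 tumours and dotted lines mark 0.25 and -0.25. Rbl2, E2f2 and E2f5 have means above 0.1, and the highest E2f5 values, 0.70 and 0.58, come from 2 tumours.

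Among the pocket proteins, Rbl2 (p130) was the one that passed. It stood at 0.34 and 0.17 in Ad-Cre transplants 1 and 2. In the 5 MMTV-Cre transplants it stood at 0.072, -0.078, 0.33, 0.37 and 0.30, the value below 0 belonging to the library labelled MMTV-Cre transplant 2. The nulliparous tumour had 0.050 and the parous tumour 0.24. Rbl2 was thus above the pool in 8 of 9 tumours, and its groups overlapped. The mean was 0.20 ± 0.16 (SD, n = 9), with a 95% interval of 0.095 to 0.30 and an adjusted p of 0.0073 in limma. By the exact sign-flip permutation test of the same values Rbl2 passed with an adjusted p of 0.0477, close to the threshold and the highest of all alternatives. The Rbl2 mean was 0.23 when the library labelled MMTV-Cre transplant 2 was left out (adjusted p in limma 0.0037) and 0.18 without Ad-Cre transplant 1 (adjusted p in limma 0.0247). Within scan days it was 0.33 ± 0.035 (n = 3, all MMTV-Cre transplants), 0.20 ± 0.12 (n = 4, Ad-Cre and intact-gland tumours) and -0.0033 ± 0.11 (n = 2, MMTV-Cre transplants 1 and 2).

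Rbl1 (p107) showed another picture, with 2 low tumours and 7 near the pool. It stood at -0.31 and 0.041 in Ad-Cre transplants 1 and 2. The MMTV-Cre transplants had -0.070, 0.017, -0.37, -0.047 and -0.054, and the nulliparous and parous tumours -0.095 and 0.022. Ad-Cre transplant 1 and MMTV-Cre transplant 3 were the low ones, and the other 7 lay between -0.095 and 0.041. The mean was -0.096 ± 0.15 (SD, n = 9) with a 95% interval of -0.20 to 0.0045 and an adjusted p of 0.12 in limma. Without MMTV-Cre transplant 3 it was -0.062 (adjusted p in limma 0.292). With scan day as a random block Rbl1 passed (-0.097, adjusted p in limma 0.0256), in a fit that called 6343 of 11680 windows in place of 4225.

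Of the activating factors, E2f2 passed. It stood at 0.31 and 0.062 in Ad-Cre transplants 1 and 2, and at 0.28, 0.093, 0.14, 0.044 and 0.20 in the MMTV-Cre transplants. The nulliparous tumour had 0.18 and the parous tumour -0.0053, the single value below 0. The groups overlapped, and the mean was 0.15 ± 0.11 (SD, n = 9) with a 95% interval of 0.058 to 0.23 and an adjusted p of 0.0142 in limma. Its mean within scan days was 0.19 (n = 2), 0.13 (n = 3) and 0.14 (n = 4).

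E2f1 followed Rbl1, which lies 2.6 Mb away on chromosome 2. It stood at -0.29 and 0.023 in Ad-Cre transplants 1 and 2, at -0.080, -0.0070, -0.36, -0.028 and -0.037 in the MMTV-Cre transplants, and at -0.10 and -0.018 in the nulliparous and parous tumours. Again Ad-Cre transplant 1 and MMTV-Cre transplant 3 were low and the rest lay near 0. The mean was -0.10 ± 0.14 (SD, n = 9), with an adjusted p of 0.0943 in limma. By the exact sign-flip permutation test of the same values it passed (adjusted p = 0.0477, range over all alternatives 0.0156 to 0.231), so E2f1 stands at the edge of the threshold.

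E2f3 varied least of the 7. Ad-Cre transplant 1 had 0.19 and Ad-Cre transplant 2 -0.022. The MMTV-Cre transplants had 0.019, -0.050, -0.0085, -0.072 and -0.024, and the nulliparous and parous tumours -0.013 and -0.044. A single tumour, Ad-Cre transplant 1, thus stood apart from 8 that lay between -0.072 and 0.019. The mean was -0.0022 ± 0.078 (SD, n = 9) with a 95% interval of -0.083 to 0.079, and the adjusted p in limma was 0.97. The SD was lower than that of all but 2.26% of tiles.

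The repressor E2f5 had both the highest mean and the widest spread. It stood at 0.58 and -0.025 in Ad-Cre transplants 1 and 2. The MMTV-Cre transplants had 0.095, 0.70, 0.30, 0.13 and 0.088, the highest being the library labelled MMTV-Cre transplant 2. The nulliparous tumour had -0.031 and the parous tumour 0.11. The Ad-Cre transplants alone thus span most of the range. The mean was 0.22 ± 0.26 (SD, n = 9) with a 95% interval of 0.071 to 0.36 and an adjusted p of 0.0227 in limma. The call rested on the high tumours. It was lost without Ad-Cre transplant 1 (0.17, adjusted p in limma 0.0836), without the library labelled MMTV-Cre transplant 2 (0.16, 0.0516) and without MMTV-Cre transplant 3 (0.21, 0.0542). The scan-day means were 0.40 (n = 2), 0.17 (n = 3) and 0.16 (n = 4), and the first holds that library.

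The atypical repressor E2f7 moved in both directions. It stood at -0.32 and -0.027 in Ad-Cre transplants 1 and 2, at -0.22, -0.034, -0.15, 0.28 and 0.013 in the MMTV-Cre transplants, and at 0.014 and 0.12 in the nulliparous and parous tumours. Ad-Cre transplant 1 was the lowest and MMTV-Cre transplant 4 the highest. The mean was -0.035 ± 0.18 (SD, n = 9) and its adjusted p in limma was 0.63.

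Ordered by mean, the genes ran from E2f5 through Rbl2, E2f2, E2f3, E2f7 and Rbl1 to E2f1. In this order only E2f2 and E2f3 differed from each other in every tumour, E2f2 being higher by 0.15 ± 0.070 in 9 of 9. E2f5 exceeded Rbl2 in 3 of 9 tumours, with a difference of 0.018 ± 0.32, and Rbl1 and E2f1 differed by 0.0049 ± 0.020. The other neighbours differed by less than the SD of their differences.

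**Figure D2:**
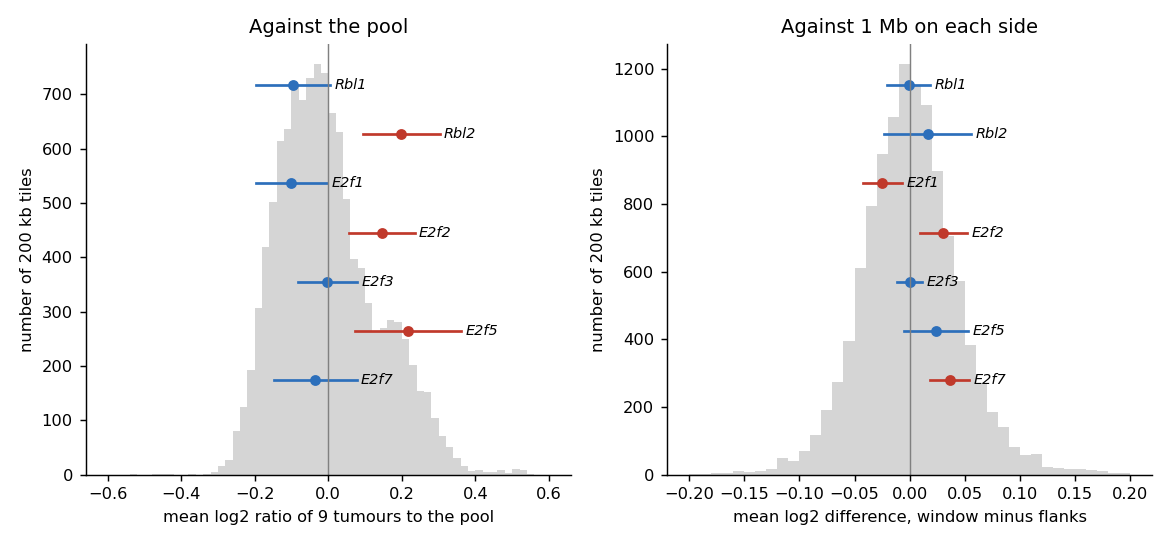
Means of 9 tumours for the 7 gene windows (points) with 95% intervals from limma (lines), over the number of 200 kb tiles at each mean (grey bars, vertical axis). Left, log2 ratio to the pool; right, log2 difference between a window and the 1 Mb on each side. Windows with an adjusted p under 0.05 are red and the others blue; their height has no meaning. Against the pool Rbl2, E2f2 and E2f5 stand to the right of most tiles, while against the flanks all 7 lie in the body of the tiles.

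A second comparison asked whether a gene stood apart from its surroundings. Differences from the 1 Mb on each side were small, between -0.025 and 0.036 as means of 9 tumours. They belong to whole windows, of which the genes fill a part. By gene length, about 6.45 of 123 probes would fall in E2f1 and 35.2 of 133 in E2f3, the lowest and highest of the 7. A change confined to a gene is diluted in these means and could be missed. E2f2 (0.031, adjusted p in limma 0.0228) and E2f7 (0.036, 0.0035) were higher than their flanks and E2f1 was lower (-0.025, 0.0248). Of all windows 25.3% were called higher and 26.2% lower by this test, so 2 of 7 up and 1 of 7 down is near the background. The median size of a window's mean difference was 0.024 for the 7 genes and 0.027 for the tiles. Rbl2, E2f5, Rbl1 and E2f3 had mean differences of 0.016, 0.024, -0.00069 and 0.00010 with adjusted p in limma of 0.467, 0.151, 0.956 and 0.989.

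E2f2 and E2f7 were called against their flanks whichever tumour was left out. E2f1 was no longer called without any 1 of Ad-Cre transplants 1 and 2 or MMTV-Cre transplants 1, 3 and 5 (adjusted p in limma 0.0512 to 0.0611). E2f7 was not called against flanks of 0.5 Mb (0.014, 0.164) and E2f2 not against flanks of 2 Mb (0.0085, 0.61) or without the filter on dim spots (0.022, 0.0945). Rbl2 was called higher than its flanks without MMTV-Cre transplant 1 (0.033, adjusted p in limma 0.0363), against flanks of 0.5 Mb (0.034, 0.0149) and without the filter on dim spots (0.053, 0.0479), and lower after another background correction (-0.064, 0.0281), so its direction is not settled. E2f3 was called higher than its flanks when medians over probes were taken (0.023, adjusted p in limma 0.0075). E2f5 was called without the parous tumour (0.037, 0.0015), where the difference from its flanks had been -0.078.

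The windows were also read in 28 pieces of 50 kb, of which 7 differed from their own window in the same direction in 9 of 9 tumours and 21 did not. The share of such pieces over the tiles is not given, so this count does not set the 7 genes apart from other regions. Each piece is also part of the window it is set against, so a low piece goes with higher pieces elsewhere in the window. The piece of the Rbl2 window from 93550001 to 93600000 was lower than the window in 9 of 9 tumours, by a mean of -0.079 ± 0.028 (SD, n = 9). The piece before it was higher in 8 of 9 (0.083 ± 0.069), and a piece of the E2f1 window from 154400001 to 154450000 was higher in 9 of 9 (0.061 ± 0.030). All tumours are set against 1 pool and share their probes, so a difference in the pool or in the probes recurs in each of them, and its part in these small differences was not tested.

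The changes followed long segments. Each array was divided into segments of even ratio, and a segment at 0.25 or more was counted as gained and at -0.25 or less as lost. Of 63 pairs of gene and tumour, 7 were gained (11.1%, against 7.96% of tile values) and 5 were lost (7.94%, against 7.98%). The pairs are not independent, as Rbl1 and E2f1 lay in the same segment in some tumours, Ad-Cre transplant 1 among them. No segment ended inside any of the 7 windows in any tumour. A segment held at least 2 bins of 5 probes, so a change over fewer probes could not form its own segment. The segments that held a gene were 1.91 to 107 Mb long.

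E2f5 was gained in 3 tumours. In the library labelled MMTV-Cre transplant 2 its segment ran 21.1 Mb from the first probe of chromosome 3 at a mean of 0.69, and in MMTV-Cre transplant 3 it ran 21.1 Mb from the same probe at 0.30. In Ad-Cre transplant 1 a segment of 8.48 Mb, from 14185958 to 22669228, stood at 0.62. The probes 1 to 5 Mb before and after the window were at 0.61 and 0.63 in that tumour, so its gain did not stop at the segment's edge. In Ad-Cre transplant 1 the window was 0.31 above the median of chromosome 3, and in each of the other 8 tumours it was below that median, with differences of -0.17 to -0.026. The parous tumour just missed the threshold, with a segment at 0.24.

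Rbl2 was gained in Ad-Cre transplant 1 (19.5 Mb at 0.30) and in MMTV-Cre transplant 4 (13.9 Mb at 0.34). The segment of the parous tumour, at 0.248, fell just short, and those of MMTV-Cre transplants 3 and 5 stood at 0.22. MMTV-Cre transplant 1 was unlike the rest. Its chromosome 8 broke into 79 segments, against 11 to 25 in the other tumours, and 13 of 100 tiles within 10 Mb of Rbl2 reached 1 or more, where no other tumour had such a tile. The highest stood at 1.52 and the lowest at -0.48. Rbl2 itself lay in a segment of 3.91 Mb at 0.041, and its difference from its 1 Mb flanks was -0.12. High-level gain thus lay on both sides of the gene while its window stood near the pool.

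E2f2 was gained in Ad-Cre transplant 1 (14.8 Mb at 0.29) and in MMTV-Cre transplant 1 (27.6 Mb at 0.26). In MMTV-Cre transplant 4 a step lay close by. The segment with E2f2 stood at 0.034 and ended at 136861010, and the probes 1 to 5 Mb after the window stood at 0.41, while those 1 to 5 Mb before it stood at 0.041. The E2f2 segment began within 8240 bp of the same place (128472266 to 128480506) in 6 of 9 tumours, including tumours whose segment was neither gained nor lost. Shared starts were not particular to E2f2. The E2f3 segment began at 13550782 in several tumours, the nulliparous tumour, MMTV-Cre transplant 1 and both Ad-Cre transplants among them. All arrays share the pool and the probes, and the part of these in the shared starts was not tested.

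Rbl1 and E2f1 were lost together, in Ad-Cre transplant 1 in 1 segment of 6.72 Mb at -0.29, and in MMTV-Cre transplant 3 in separate segments of 14.4 Mb at -0.37 (Rbl1) and from 142718994 to 154714806 at -0.40 (E2f1). E2f7 was lost in Ad-Cre transplant 1 (13.8 Mb at -0.37); in MMTV-Cre transplant 1 its segment at -0.23 and in MMTV-Cre transplant 4 its segment at 0.24 missed the thresholds. E2f3 was neither gained nor lost in any tumour. Ad-Cre transplant 1 held 6 of the 12 calls, with E2f2, E2f5 and Rbl2 gained and Rbl1, E2f1 and E2f7 lost, on an array where 8.4% of tiles were gained and 28.4% lost. MMTV-Cre transplant 3 held 3 calls, with 7.86% of its tiles gained and 11.4% lost. MMTV-Cre transplants 1 and 4 and the library labelled MMTV-Cre transplant 2 held 1 gain each, where 3.97%, 13% and 20.5% of their tiles were gained. The other 4 held none. Of their tiles, 0.754% were gained and 2.71% lost in Ad-Cre transplant 2, and 1.77% gained and 0.257% lost in MMTV-Cre transplant 5. In the nulliparous tumour 9.3% were gained and 9.81% lost, and in the parous tumour 6.01% and 15.4%.

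**Figure D3:**
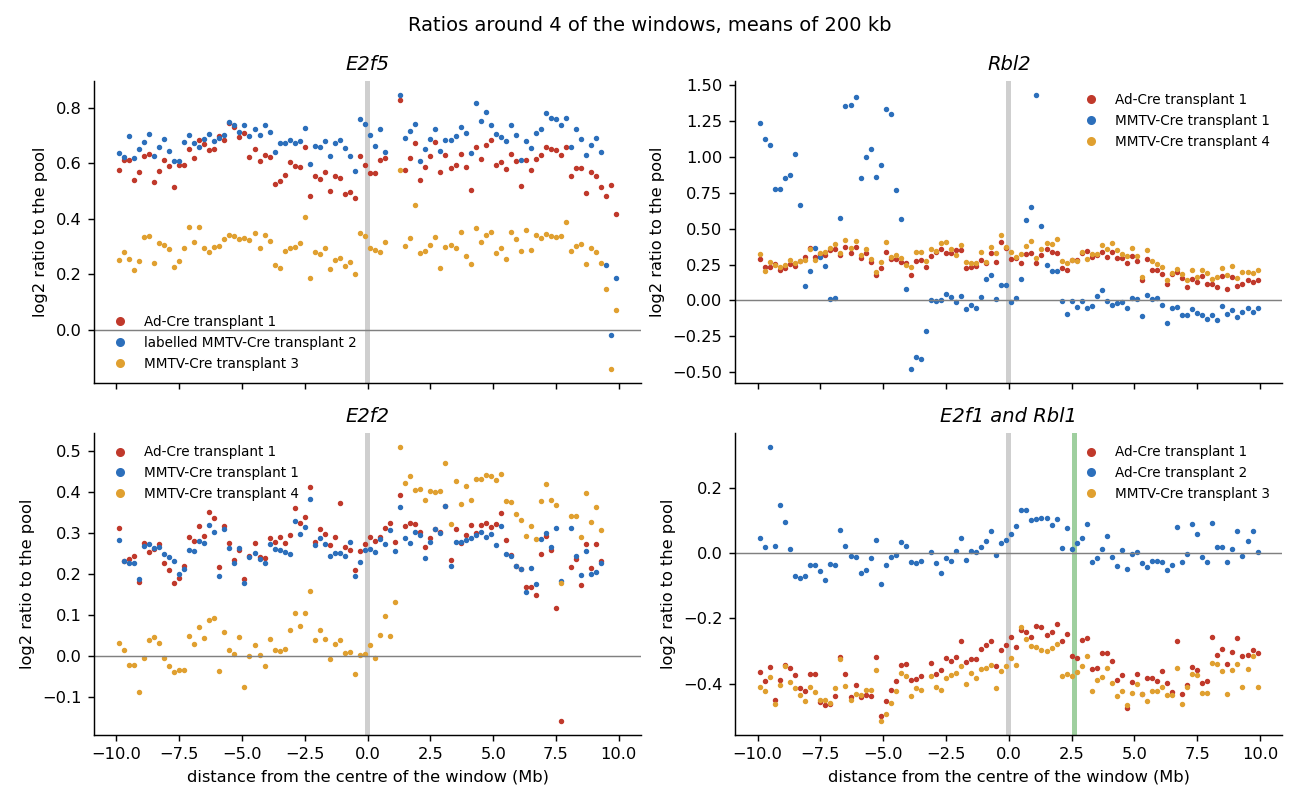
Log2 ratio to the pool (vertical axis, scaled for each panel) in means of 200 kb, by distance from the centre of the window in Mb, for 3 tumours at each of 4 windows. Grey bands mark the named window and the green band marks Rbl1 beside E2f1. E2f5 and the E2f1 and Rbl1 pair lie on broad plateaus, MMTV-Cre transplant 1 has tiles above 1 on both sides of Rbl2, and MMTV-Cre transplant 4 steps up after E2f2.

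Each gene was next set against its whole chromosome. Rbl1 stood 0.043 ± 0.019 and E2f1 0.038 ± 0.024 above the median of chromosome 2 (SD, n = 9), each in 9 of 9 tumours. E2f2 stood 0.090 ± 0.052 above chromosome 4 in 8 of 9, the parous tumour being the exception, and Rbl2 stood 0.056 ± 0.069 above chromosome 8 in 7 of 9. E2f3 and E2f7 differed from their chromosomes by -0.025 ± 0.017 and -0.015 ± 0.030. E2f5 differed by -0.036 ± 0.14, the wide SD coming from Ad-Cre transplant 1. These differences were not tested, and the share of tiles above their chromosome in as many tumours is not given. Rbl1 and E2f1 lie close together on chromosome 2 and do not count separately.

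**Figure D4:**
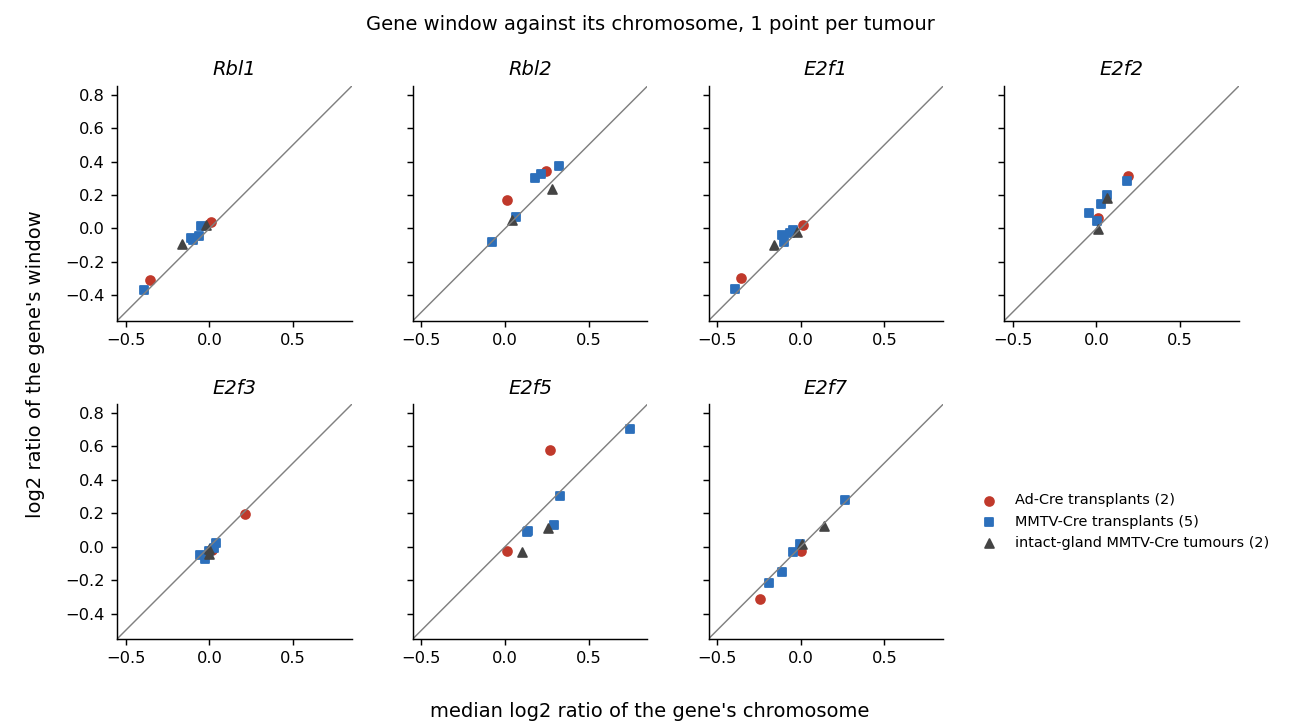
Log2 ratio of each gene window (vertical axis) against the median log2 ratio of its chromosome (horizontal axis), 1 point per tumour, with symbols for the Ad-Cre transplants, MMTV-Cre transplants and intact-gland tumours. The grey line marks equal values; Rbl1, E2f1, E2f3 and E2f7 lie along it, and the E2f5 point 0.31 above it is Ad-Cre transplant 1.

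Across the 9 tumours Rbl1 and E2f1 had a Pearson r of 0.99, sharing a chromosome arm and the same arrays. Among genes on different chromosomes, E2f2 and E2f3 had an r of 0.76, E2f2 and E2f7 -0.80 and E2f3 and E2f7 -0.80. Of all 21 pairs of the 7 genes, these were the largest in size between different chromosomes. Ad-Cre transplant 1 lay at an end of each, and r without that tumour was not computed. The tile on another chromosome most like Rbl1 and E2f1 lay on chromosome 17 from 43200001 (r = 0.88 and 0.89), but without the 2 most extreme tumours r was 0.11 and 0.26. For Rbl2 it lay on chromosome 10 from 25400001 (0.84, then 0.79), for E2f2 on chromosome 6 from 4200001 (0.89, then 0.86), for E2f5 on chromosome 19 from 45600001 (0.88, then 0.63), and for E2f7 on chromosome 8 from 125200001 (0.84, then 0.71). E2f3 had an r of 0.96 with a tile on chromosome 18, and 0.61 without those tumours. These are the highest of 10800 to 11116 tiles each and describe these 9 arrays alone.

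The design sets Ad-Cre against MMTV-Cre transplants, and transplants against tumours of the intact gland. No gene window passed between Ad-Cre and MMTV-Cre transplants, and none of the 11680 windows passed in limma (0% called, 283 at an unadjusted p under 0.05). The largest difference among the 7 was E2f7, at -0.17 in Ad-Cre and -0.022 in MMTV-Cre transplants (difference -0.15, 95% interval -0.43 to 0.13). E2f3 averaged 0.086 in Ad-Cre and -0.027 in MMTV-Cre transplants (0.11, -0.089 to 0.32), and E2f5 averaged 0.28 in Ad-Cre and 0.26 in MMTV-Cre transplants (0.012, -0.37 to 0.39). The intervals include differences larger than most of the means above, so they do not show that the groups are alike. The 2 Ad-Cre transplants also stood far apart from each other at E2f5, at 0.58 and -0.025. At the chromosome 11 probes Ad-Cre transplant 2 kept 59.8% of the flank signal and Ad-Cre transplant 1 34.9%. Whether their shares of tumour cells differ was not tested.

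MMTV-Cre transplants and intact-gland tumours likewise had no call at the 7 windows, and none of 11680 passed in limma (0% called, 479 at an unadjusted p under 0.05). E2f5 had the largest difference, with 0.26 in MMTV-Cre transplants and 0.040 in intact-gland tumours (0.22, 95% interval -0.16 to 0.60). Rbl2 averaged 0.20 in MMTV-Cre transplants and 0.14 in intact-gland tumours (0.055, -0.22 to 0.33), and E2f7 averaged -0.022 in MMTV-Cre transplants and 0.069 in intact-gland tumours (-0.091, -0.37 to 0.19). In both comparisons scan day and group cannot be told apart. Ad-Cre transplants and intact-gland tumours shared a scan day, and within it 72 of 11680 windows passed (0.616%). None of the 7 was among them, the largest differences being -0.24 at E2f7 and 0.24 at E2f5 (adjusted p in limma 0.995 for each). That fit held 4 arrays and gave each of the 7 windows the same standard error, 0.211. A call there thus rested on the size of the difference and not on the spread of a window's own tumours.

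The other genes of the pathway were placed by chromosome alone, so a call is the call of the whole chromosome. Of 12 listed genes, 1 lay on a chromosome that was higher in the tumours and 3 on chromosomes that were lower. The other 8 lay on chromosomes that did not pass. By exact sign-flip permutation 5 of 19 autosomes passed (26.3%), chromosomes 3, 5 and 15 upward and 2 and 7 downward. The 4 of 12 genes are near that share, and E2f8 and Lin37 share chromosome 7 and do not count separately. Among the E2F factors and their DP partners, E2f8, the closest relative of E2f7, was on chromosome 7 (median -0.15 ± 0.11, SD, n = 9, below 0 in 9 of 9, adjusted exact p = 0.0186). E2f4, the partner of p107 and p130 in repression, and Tfdp1 share chromosome 8 with Rbl2 (0.14 ± 0.14, adjusted exact p = 0.0742). Tfdp2 and E2f6 were on chromosomes 9 and 12, which did not pass.

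Of the genes of the DREAM complex, the repressor that p130 and p107 form with E2F and the MuvB core, Lin54 was on chromosome 5 (0.16 ± 0.12, SD, n = 9, above 0 in 9 of 9, adjusted exact p = 0.0186). Lin37 shared chromosome 7 with E2f8, and Mybl2, which encodes B-MYB and joins MuvB when cells cycle, shared chromosome 2 with Rbl1 and E2f1 (-0.14 ± 0.14, adjusted exact p = 0.0297). Lin9, Lin52 and Rbbp4 lay on chromosomes 1, 12 and 4, and Rb1 itself on chromosome 14 (-0.046 ± 0.15), none of which passed. When the library labelled MMTV-Cre transplant 2 was left out, 7 of the 12 lay on a called chromosome, and 7 of the 19 autosomes were called.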

How the data were processed

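Each tumour was hybridised on 1 array against the tail DNA pool. Agilent Feature Extraction (version 10.5.1.1) produced the values, per the file headers. Its processed signals, as deposited, are spot intensity values with background subtracted, spatial trends removed and dyes balanced linearly, while its median signals are the unprocessed intensity of each spot. The authors' own ratios are deposited on the log10 scale (red to green), once per array and once, rounded, in a table of the series. The log2 ratio was computed here from the deposited processed signals, with tumour DNA red and pool DNA green per the labels. Spots not well above background in the pool channel or flagged as outliers were left out (1597 to 2115 per array). The reference signal was 21.8 to 32.4 times and the tumour signal 14.9 to 17.9 times its background. The number of arrays limits the precision.

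Ratios were centred on the autosomal median and averaged per window of at least 10 probes. No genome build is named in the files, so the mm9 windows were applied to their positions as printed. The gene table (GRCm38.p6) gave names, chromosomes, gene lengths and neighbours only. The tests used limma (version 3.58.1, R 4.3.3), with p-values adjusted over all windows by Benjamini-Hochberg, and a threshold of 0.05: against 0, against flanks, and as 3 groups sharing one spread (Ad-Cre transplants, MMTV-Cre transplants, and the nulliparous and parous tumours together). Ratios against 0 leave out the spread of control DNA. Segments came from penalised least squares (PELT) on bins of 5 probes, penalty factor 10, at least 2 bins. Chromosome medians were tested by an exact two-sided sign-flip permutation over 512 patterns. Fits were tested on simulated data. The rule for the 7 windows uses no measured value, but the genes and the lists were chosen with earlier results of these data known. All 7 genes, 1 most similar tile each, the 12 listed pathway genes and the nearest neighbours are named by rule. Alternatives changed the background correction, centring, filter, tile, flank and segmentation settings, scan day and each tumour in turn. Python 3.11.15, numpy 2.4.6, pandas 2.3.3 and matplotlib 3.10.9 were used.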

Additional observations from a re-analysis of the deposited data

Results flagged for a closer look

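Of 28 sets of values checked, 8 had 1 tumour far from the others; about 1 set in 20 is expected to by chance, and Rbl1 and E2f1 lie on one chromosome and so do not count separately. Among the 5 MMTV-Cre transplants, transplant 3 was far below the others at Rbl1 (-0.37) and at E2f1 (-0.36). Among all 9 tumours, Ad-Cre transplant 1 was far above the others at E2f3 (0.19), the gene with the least spread otherwise.

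Differences from the flanks gave the other 5. MMTV-Cre transplant 1 was far below the other MMTV-Cre transplants at Rbl2 (-0.12), where tiles within 10 Mb reached 1.52. The library labelled MMTV-Cre transplant 2 stood above the other MMTV-Cre transplants at E2f2 (0.090) and above all other tumours at E2f3 (0.027). The parous tumour was far below the others at E2f5 (-0.078), on the array with the highest noise between neighbouring tiles, 0.055. At the same gene MMTV-Cre transplant 1 was below the other MMTV-Cre transplants (0.0093). The part of array noise in these values was not tested.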

How the results depend on the processing

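Rbl2 and E2f2 were called against the pool under each of the 18 alternatives run, with means of 0.17 to 0.23 and 0.12 to 0.22. E2f5 lost its call when arrays were centred on the mode (0.19, adjusted p in limma 0.0614) and without each of 3 tumours, as given above. With scan day as a random block 5 windows were called, Rbl1 and E2f1 included, in a fit that called 6343 of 11680 windows against 4225 (consensus correlation -0.184, which narrows the errors). Leaving out a tumour left 2 to 3 windows called against the pool and 2 to 4 against the flanks. Means near 0 changed sign: E2f3 against the pool was 0.062 with the normexp correction, 0.043 as a median over probes, 0.0034 with the random block and -0.027 to 0.0065 without 1 tumour. E2f7 against the pool was 0.019 with normexp and -0.074 to 0.00012 without 1 tumour. Against the flanks, Rbl1 was 0.017 and Rbl2 -0.064 with normexp, and Rbl1 was -0.0065 to 0.0037 without 1 tumour. E2f3 was 0.023 (called) as a median over probes, -0.0045 with flanks of 0.5 Mb, -0.00057 with the random block and -0.0032 to 0.0019 without 1 tumour. The cause was not tested. Of the windows called against the pool 46.5% were higher; this share was 64.9% with normexp and 55.8% as a median over probes, and centring on the mode gave 1277 higher and 2984 lower windows, since it moves all windows of an array by one amount. Segment calls numbered 12 of 63 (16741 of 105057 tile values), or 21 at a threshold of 0.15 (36889), 3 at 0.4 (4245), 20 with normexp (25759) and 6 to 12 without 1 tumour, the 6 being without Ad-Cre transplant 1. Pathway genes on called chromosomes numbered 4, and 3 to 7 without 1 tumour, as 4 to 7 autosomes were called. Neither comparison between groups called any of the 7 windows under any alternative run. Correction for GC content was not run. No paired analysis was possible because the labels carry no replicate numbers shared between groups.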
